A study of Arabidopsis thaliana with 6 samples.

Results

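SWEET proteins are membrane channels that let sugars pass down their concentration gradient, out of or into cells. Arabidopsis has 17 SWEET genes, in clades named I to IV, and the clade III proteins are known mainly as sucrose carriers. In flowers, SWEET exporters release sugar from the anther wall and the nectary, and developing pollen, which has no cell connections to the tissue around it, must take its sugar up from the surrounding fluid. Described here are 4 SWEET genes linked to pollen, anther or nectary: AtVEX1 (AT5G62850, also called SWEET5), named for its expression in the vegetative cell of pollen, SWEET13 (AT5G50800) and SWEET14 (AT4G25010), which act together in the anther and can also carry gibberellin, and SWEET9 (AT2G39060), the sucrose exporter that nectar secretion requires.

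The 4 genes were found by their symbols in the platform's probe table and have 1 probe set each, among 22746 probe sets that are not array controls. They were selected on earlier results of these data, namely their lower signals in the mutants than in the wild type, so that difference is given here as a description without a test. Of the 17 SWEET genes, 16 had a named probe set, and the other 12 serve for comparison. SWEETIE shares the start of the name but is not a SWEET transporter and was left out.

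The samples were floral buds of mixed age up to stage 13, from the primary inflorescence of 42-day-old Arabidopsis thaliana plants of the Col-0 ecotype. The groups were the wild type and 2 mutant alleles of the protein kinase gene AtYAK1, atyak1-1 and atyak1-2, each with 2 biological replicates, every replicate on an Affymetrix ATH1 array of its own, and the study concerns the role of AtYAK1 in the male gametophyte. The sources used here do not give the nature of the alleles or whether buds of several plants were pooled. Values are MAS5 signals, a linear measure of probe set brightness that cannot be compared between genes. With so few arrays the precision of each value is limited. The median signal was between 213 and 223 on all 6 arrays. Of the 7 floral organ identity genes listed as tissue markers, 0 had a named probe set, while the 3 tapetum markers that had one gave signals of at least 586 on every array.

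All 4 genes had lower signals on every mutant array than on either wild-type array. The wild-type mean was 60.6 times the mutant mean for SWEET9, 21.7 times for AtVEX1, 20.4 times for SWEET14 and 6.40 times for SWEET13, all as ratios of geometric means. Over the whole array, 10.9% of probe sets had every mutant array below both wild-type arrays. Because the genes were chosen from this contrast, nothing is read from their count against that background.

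AtVEX1, a sugar carrier of clade II, had signals of 1420 and 2613 in the wild type, 287 and 32.5 in atyak1-1, and 109 and 60.8 in atyak1-2, for replicates 1 and 2 in turn. It varied more between replicates than the other 3 genes, with a pooled SD within groups of 1.37 on the log2 scale. The array of atyak1-1 replicate 1 was the highest of the mutant arrays and that of atyak1-1 replicate 2 the lowest. The log2 difference of the mean of both alleles from the wild type was -4.44 ± 0.80 (limma's moderated SE, 4 mutant and 2 wild-type arrays). A moderated SE also draws on the spread of other probe sets, and here it is smaller than the gene's own spread would give. Both replicate 2 mutant arrays lay under a signal of 73.6, the level under which the dimmest 33.3% of probe sets were left untested. The difference was -5.23 without atyak1-1 replicate 1 and -3.66 without atyak1-1 replicate 2.

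SWEET13, also known for its part with SWEET8 in building the pollen wall, had signals of 882 and 1159 in the wild type, 190.4 and 105 in atyak1-1, and 205 and 153 in atyak1-2. Its pooled SD of 0.42 was the smallest of the 4. The difference was -2.68 ± 0.28 on the log2 scale. No mutant array of SWEET13 lay under 73.6.

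SWEET14, the close relative of SWEET13, had signals of 1070.1 and 886 in the wild type, 56.7 and 46.3 in atyak1-1, and 71.2 and 27.5 in atyak1-2. All 4 mutant arrays lay under 73.6, a range in which a signal may not differ from background. The log2 difference was -4.35 ± 0.38. With signals under 73.6 set to that level, an alternative added after the values were seen, it was -3.73, and the wild-type mean was 13.2 times the mutant mean.

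SWEET9 had the widest gap. Its signals were 1867 and 1289 in the wild type, 35.5 and 15.4 in atyak1-1, and 34.2 and 23.0 in atyak1-2. Its log2 difference was -5.92 ± 0.39. As all 4 mutant arrays again lay under 73.6, the size is uncertain: with dim signals set to 73.6 the difference was -4.40, or 21.1-fold, and with 32 added to every signal before the log it was -4.76. These genes passed the signal filter through their wild-type arrays, since all 8 of the SWEET14 and SWEET9 mutant signals were below its level.

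**Figure D1:**
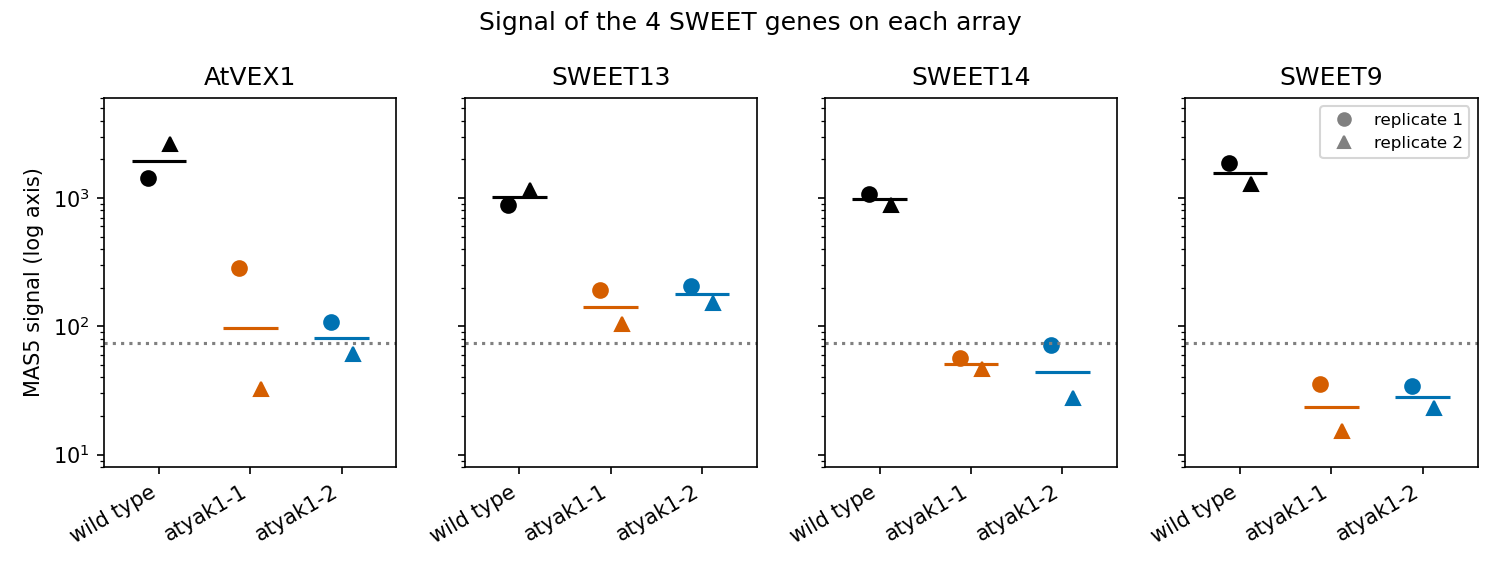
MAS5 signal (log axis) of AtVEX1, SWEET13, SWEET14 and SWEET9 on each array, with a circle for replicate 1, a triangle for replicate 2 and a bar for the geometric mean of each genotype. The dotted line is the signal filter at 73.6; every mutant point of SWEET14 and SWEET9 lies under it, 2 of the 4 of AtVEX1 do, and none of SWEET13.

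In each allele and for each of the 4 genes, the replicate 2 mutant array was dimmer than the replicate 1 array. Replicate 2 minus replicate 1 was -3.14 on the log2 scale for AtVEX1 in atyak1-1 and -0.84 in atyak1-2, and between -0.29 and -1.37 for the other genes. For SWEET14 and SWEET9 every mutant signal compared lay under 73.6. Of all probe sets, 34.5% and 33.8% lay under 73.6 in atyak1-1 and atyak1-2 replicate 2. In replicate 1 it was 32.7% and 32.6%. How many other probe sets were dimmer in replicate 2 was not counted, so the order may not be particular to these genes. The wild-type arrays went different ways: AtVEX1 and SWEET13 were brighter in wild-type replicate 2, by 0.88 and 0.39, and SWEET14 and SWEET9 dimmer, by -0.27 and -0.53. The gap to the wild type within a replicate therefore differed most for AtVEX1, at -3.01 within replicate 1 and -5.88 within replicate 2. For SWEET13 it was -2.16 and -3.19, for SWEET14 -4.07 and -4.63, and for SWEET9 -5.74 and -6.10.

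**Figure D2:**
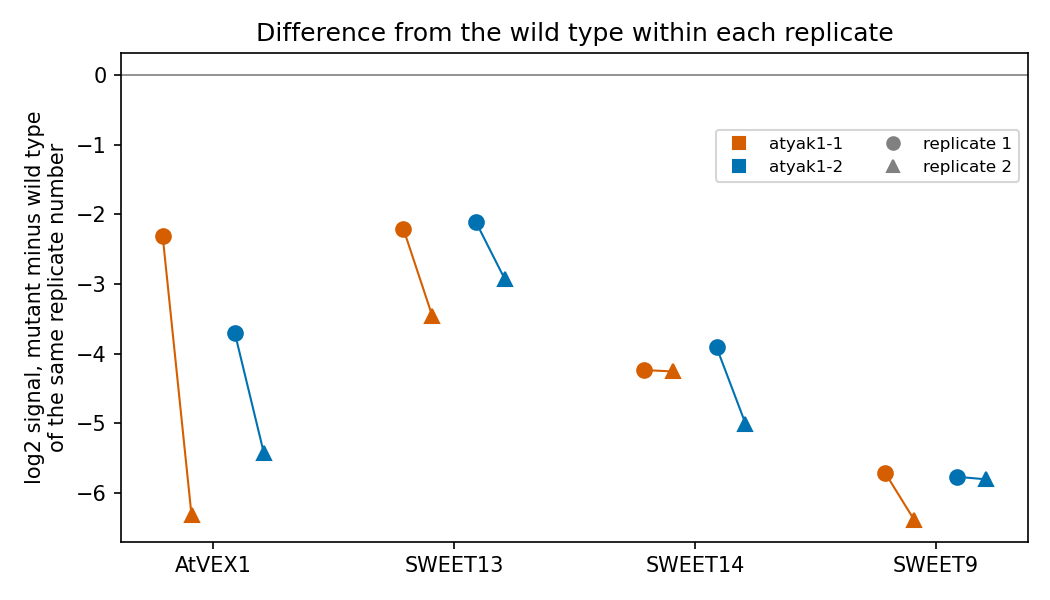
Log2 signal of each mutant array minus the wild-type array of the same replicate number, for AtVEX1, SWEET13, SWEET14 and SWEET9, with lines joining the replicates of an allele. The lines of AtVEX1 are the steepest, from -2.31 to -6.33 in atyak1-1, and those of SWEET9 stay between -5.72 and -6.39.

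The comparison of the alleles with each other was not used to choose the genes and can be tested. In limma, fitted to all 6 arrays with Benjamini-Hochberg adjustment, 0 of 15164 probe sets passed an adjusted p of 0.05 (0%), and 151 had an unadjusted p under 0.05. Neither AtVEX1 nor SWEET13 passed, each with an adjusted p of 1. The log2 difference of atyak1-2 from atyak1-1 was -0.25 for AtVEX1, with a 95% interval from -2.44 to 1.94. Here 2 of the 4 mutant signals of AtVEX1 lay under 73.6. It was 0.32 for SWEET13 (-0.43 to 1.08), whose mutant signals were all above that level. Both intervals still allow an allele difference of more than 2-fold. SWEET14 and SWEET9 entered this test through their wild-type arrays alone, and every mutant signal that it compares lay under 73.6. Their fitted values, -0.21 (-1.25 to 0.83) and 0.26 (-0.82 to 1.34), may compare background with background and set no limit on an allele difference. The geometric means of atyak1-1 and atyak1-2, which share their wild-type arrays, were 96.6 and 81.2 for AtVEX1, 141 and 177 for SWEET13, 51.2 and 44.3 for SWEET14, and 23.4 and 28.0 for SWEET9.

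**Figure D3:**
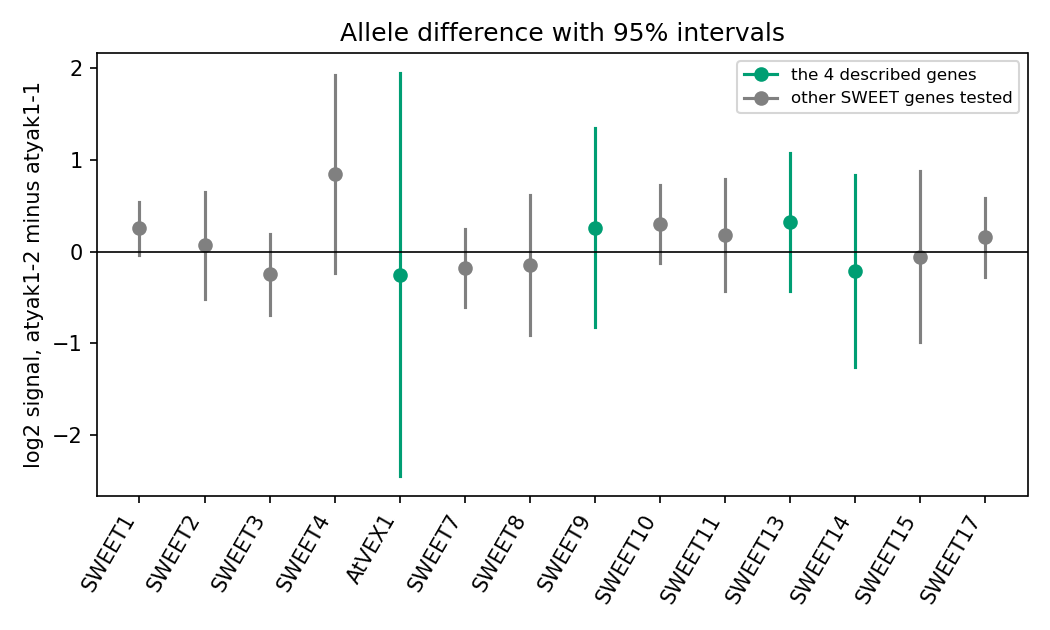
Log2 signal of atyak1-2 minus atyak1-1 for the SWEET genes that were tested, with 95% intervals from the limma fit; green marks AtVEX1, SWEET9, SWEET13 and SWEET14 and grey the other SWEET genes. Every interval spans 0, that of AtVEX1 is the widest, from -2.44 to 1.94, and those of SWEET14 and SWEET9 rest on mutant signals all under 73.6.

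The rest of the SWEET family was compared between the mutants and the wild type in the same model, where 1.93% of the 15164 probe sets tested passed. Of the 12 other SWEET genes with a probe set, 10 were tested and 0 passed in limma, while 2, SWEET4 and SWEET1, had an unadjusted p under 0.05. The means of 7 were lower and of 3 higher in the mutants, and the median log2 difference was -0.11, against 0.09 over all probe sets tested.

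SWEET4, a hexose carrier of clade II, had the largest difference of these 10. Its signals were 1260 and 1242 in the wild type, 474 and 172 in atyak1-1, and 642 and 410 in atyak1-2, so the groups did not overlap, and in both alleles replicate 2 was the dimmer array. The log2 difference was -1.71 ± 0.39 and did not pass (adjusted p = 0.096). With the replicate number added as a block, where 7.59% of all probe sets tested passed, so did SWEET4 (adjusted p = 0.0054). With arrays left out in turn its log2 difference ranged from -2.07, without atyak1-1 replicate 1, to -1.34, without atyak1-1 replicate 2. These fits leave a single array in a group, and the call of SWEET4 was not the same in all of them.

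The other clade II genes had smaller differences, none of which passed. SWEET8, which the pollen wall needs at the microspore stage, had signals of 775 and 1624 in the wild type and between 1341 and 1658 in the mutants (0.39 ± 0.28, adjusted p = 0.51), and its sign turned without wild-type replicate 1 (-0.14). SWEET7 had 533 and 623 in the wild type and between 395 and 530 in the mutants (-0.30 ± 0.15, adjusted p = 0.37). SWEET6 was dim throughout, between 23.2 and 45.8, and was not tested.

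Among the relatives of SWEET9, SWEET13 and SWEET14 in clade III, SWEET10 had 2200 and 3020 in the wild type and between 2058 and 2776 in the mutants (-0.16 ± 0.15, adjusted p = 0.63). SWEET11, a phloem-loading sucrose exporter, had 1107 and 924 in the wild type and between 824 and 1358 in the mutants (0.13 ± 0.22, adjusted p = 0.79). SWEET15, which the probe table lists as SAG29 after its expression in senescing leaves, had 305 and 158 in the wild type and between 115 and 182 in the mutants (-0.62 ± 0.34, adjusted p = 0.40). SWEET12 had no named probe set.

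In clade I, SWEET1, a glucose carrier, had 2786 and 3118 in the wild type and between 2190 and 2738 in the mutants (-0.26 ± 0.11, adjusted p = 0.29). SWEET2 and SWEET3 had log2 differences of 0.25 ± 0.21 and -0.01 ± 0.16 (adjusted p = 0.59 and 0.99). Of the vacuolar fructose carriers of clade IV, SWEET17 had -0.05 ± 0.16 (adjusted p = 0.90), and SWEET16, between 32.8 and 54.6 on every array, was not tested. The signs of SWEET3, SWEET10, SWEET11 and SWEET17 turned when single arrays were left out.

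**Figure D4:**
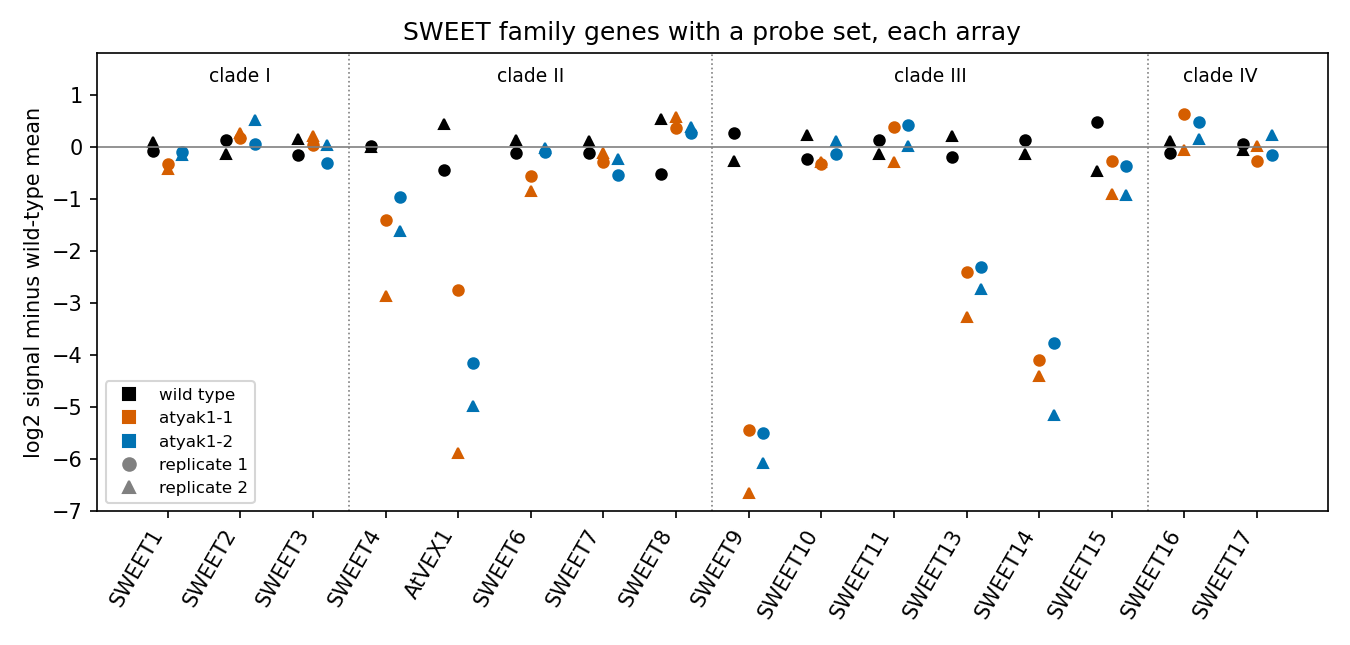
Log2 signal on each array minus the wild-type mean of that gene, for the 16 SWEET genes with a probe set, ordered by clade, with colours for genotype and circles and triangles for replicates 1 and 2. The mutant points of AtVEX1, SWEET9, SWEET13 and SWEET14 lie below -2 and those of SWEET4 between -2.86 and -0.96, while every point of the other genes lies above -1.

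The chromosomal neighbours of the 4 genes were looked up after the values were seen. In the TAIR10.1 annotation SWEET13 lies beside SWEET10 with 0 protein-coding genes between them, and SWEET10 did not pass, as given above. Of the 8 protein-coding genes that flank the 4, 5 had a named probe set. In limma 0 of the 5 passed, against 1.93% of all probe sets tested, so this count says little about them. They include AMY1, an amylase gene beside SWEET14 (-0.29, adjusted p = 0.79), AT5G62840 beside AtVEX1 (-0.01, adjusted p = 0.99) and the lectin gene EULS3 beside SWEET9, with signals of 412 and 385 in the wild type and between 217 and 290 in the mutants (-0.60, adjusted p = 0.15). With the replicate number added as a block, EULS3 passed (adjusted p = 0.042). The signs of AMY1 and AT5G62840 turned when single arrays were left out.

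Markers of late pollen moved with the 4 SWEET genes. Of 14 listed markers 11 had a named probe set, none at 0, and 10 of these were lower on every mutant array than on either wild-type array, against 10.9% of all probe sets. Their summed signal was 3376 and 3528 in the wild type and between 518 and 672 in the mutants. The sum weighs bright probe sets most, with 1409 and 1267 of the wild-type values from PLIM2a. Of the 7 tested in limma, 4 passed, all lower, against 1.93% of all probe sets tested. The median log2 difference of the 7 was -1.58, against 0.09 over all probe sets tested. AGL65, whose groups overlapped, had -0.06 (adjusted p = 0.92). The list was chosen with earlier results of these data known, so its counts and adjusted p-values are a description and not independent evidence. PLIM2a, an actin-bundling protein of pollen, had 1409 and 1267 in the wild type and between 26.3 and 58.9 in the mutants, with a log2 difference of -5.36 ± 0.33 (adjusted p = 0.0014). The receptor kinase gene BUPS1 of pollen tubes had 458 and 393 against 19.1 to 44.9 (-3.76 ± 0.42, adjusted p = 0.011). Every mutant signal of PLIM2a and BUPS1 lay under 73.6, so both entered the test through their wild-type arrays. Their adjusted p-values therefore give no support of their own, and the sizes are uncertain. Without wild-type replicate 1 or 2 neither call held (adjusted p = 0.084 and 0.063 for PLIM2a, 0.18 in both cases for BUPS1), and that of BUPS1 also ended without atyak1-2 replicate 2 (0.0505). These arrays were made from whole buds, so fewer cells of a type and less RNA per cell cannot be told apart, and the part of pollen content in the SWEET values was not tested.

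Markers of other tissues were fewer. The 3 tapetum markers with a probe set were AMS, A9 and SHT. Their signal sums, weighted to bright probe sets, were 3808 and 7765 in the wild type and between 4810 and 8533 in the mutants. None of the 3 passed, and their groups overlapped. Their means were slightly higher in the mutants, but turned lower without wild-type replicate 1. Of the 5 nectary markers only JMT, a jasmonate methyltransferase gene, had a named probe set, so the nectary was not checked against its defining genes such as CRC. JMT had 456 and 631 in the wild type, 231 and 365 in atyak1-1 and 234 and 376 in atyak1-2. Its groups did not overlap, but its log2 difference of -0.87 ± 0.28 did not pass (adjusted p = 0.20). It passed when the replicate number was added as a block (adjusted p = 0.0065), and its part in the SWEET9 value was not tested.

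Other genes of sugar supply were thinly covered by the names. Across 6 lists of sugar transporters, sugar enzymes and gibberellin genes, 16 of 69 genes had a named probe set, of which 11 entered the test. In limma 0 of the 11 passed, against 1.93% of all probe sets tested, and 2 had an unadjusted p under 0.05. VI1, a vacuolar invertase, which splits sucrose, had 618 and 650.1 in the wild type and between 314 and 431 in the mutants (-0.82 ± 0.17, adjusted p = 0.077). Adding the replicate number as a block, where 7.59% of all probe sets tested passed, made VI1 pass (adjusted p = 0.014). With arrays left out in turn its log2 difference ranged from -0.93, without atyak1-1 replicate 1, to -0.70, without atyak1-1 replicate 2. The call of VI1 was not the same in all of these fits, which leave a single array in a group. TMT3, a sugar carrier of the vacuolar membrane, had 421 and 614 in the wild type and between 172 and 322 in the mutants (-1.10 ± 0.33, adjusted p = 0.18).

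Its relatives TMT1 and TMT2 had -0.02 and -0.06, and TMT1 turned sign when single arrays were left out. The polyol carrier PMT4 had 0.23, the hexose carrier STP3 had 0.01, which turned sign after quantile normalization, and the sucrose phosphate synthase SPS4F had -0.37. PMT3, of the same family as PMT4, was too dim to be tested and was picked out after its values were seen. It had 89.6 and 138 in the wild type and between 6.50 and 18.5 in the mutants. In a fit without the filter its log2 difference was -3.18 ± 0.59, given as a description because of how PMT3 was picked. None of the 8 listed sucrose transporters of the SUC family had a named probe set.

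Since SWEET13 and SWEET14 can carry gibberellin, genes of that hormone were included. The receptor gene GID1A had 740.1 and 775 in the wild type and between 843 and 998 in the mutants (0.25 ± 0.13, adjusted p = 0.37). Its fellow receptors GID1B and GID1C had 0.36 and 0.10, and SLY1, which helps to remove the repressors of gibberellin signalling, had 0.10. All 4 means were higher in the mutants, but the median over all probe sets tested was itself 0.09. None of the 4 passed, against 1.93% of all probe sets tested. Of 16 listed gibberellin genes only these 4 had a named probe set, and no synthesis gene was among them.

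The genes whose log2 signals followed each SWEET gene most closely over the 6 arrays were found among 8305 named probe sets. Because the arrays fall into wild type and mutant, this likeness mostly reflects that gap, and the values are a description. For AtVEX1 they were AT5G61720 (Pearson r = 0.998), AT2G20320 and AT1G29140. AT5G61720 had 3737 and 4991 in the wild type, 881 and 153 in atyak1-1, and 363 and 236 in atyak1-2, with the same order of the 6 arrays as AtVEX1. For SWEET13 they were AT5G07420 (r = 0.999), AT2G39130 and AT4G00350. For SWEET14 they were RALFL25 (r = 0.999), a gene for a small signalling peptide of the RALF family, AT1G04700 and AT5G50830. RALFL25 had 1132 and 794 in the wild type, 32.4 and 19.9 in atyak1-1, and 35.2 and 13.1 in atyak1-2. For SWEET9 they were AT4G25780 (r = 0.998), AT3G28270 and AT3G61160.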

How the data were processed

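Transcript levels of 6 floral bud samples were read from the deposited table of MAS5 signals, which are intensity values on a linear scale, 1 per probe set. GCOS and MAS5 are named without versions per the submitters' processing notes, with the order of their steps not given in these sources. With 2% trimmed from each end, every array had a mean signal of 500.04. The members and gene lists were chosen with earlier results of these data known.

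Signals were taken to log2 without further normalization, 64 control probe sets and the dimmest 33.3% of the rest were left out, and 15164 probe sets were tested. In limma 3.58.1 (R 4.3.3), all 6 arrays were fitted with a mean for each genotype, with a variance trend and Benjamini-Hochberg adjustment over all probe sets tested. SEs and intervals are limma's moderated values. Of several probe sets of a listed gene, the brightest was used. Names came from the platform's probe table and RefSeq's gene table. The text names the 4 genes and the other SWEET genes. Of each list of sugar or gibberellin genes it names up to 4 tested genes by smallest p. Marker genes are named as examples, for late pollen the 2 with the smallest p and that with the largest. Also named are the 3 genes most alike to each of the 4 by correlation. Promoter and protein sequences were not analysed here.

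Samples of the same replicate number deviated together from their group means (correlations of 0.25, 0.35 and 0.61 between groups over probe sets), which meets the bar set here for pairing. This evidence is only the titles and these correlations. The tests reported are unpaired, with blocked values (replicate number as block) printed beside each call that they change. Tested on simulated data of 15164 probe sets, the fit recovered 57% of changes of 1 log2 unit between mutants and wild type, and 41% between the alleles. It recovered 95% of changes of 2 log2 units in both comparisons. False calls numbered 12 between mutants and wild type and 13 between the alleles, with 100 changes planted of each size in each comparison. Figures were drawn with matplotlib 3.10.9.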

Additional observations from a re-analysis of the deposited data

How the results depend on the processing

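The direction of the 4 SWEET genes, for which they were chosen, held under every alternative run: other scalings, an added constant, a floor, single replicates and each array left out. Apart from the scalings, these could not have turned it, since every mutant signal lay below both wild-type signals. Only the sizes are therefore informative here. With arrays left out in turn, the log2 difference ranged from -5.23 to -3.66 for AtVEX1, -2.89 to -2.46 for SWEET13, -4.70 to -4.01 for SWEET14 and -6.22 to -5.62 for SWEET9. It moved by more than the replicate SD within replicates 1 and 2, the paired values, for AtVEX1 (-3.01 and -5.88) and SWEET13 (-2.16 and -3.19). It also moved with 32 added to the signals for SWEET14 (-3.64) and SWEET9 (-4.76), and with dim signals set to 73.6 (-3.73 and -4.40), which raises low values by construction. Over all probe sets the count for mutants against the wild type was 292, but 445 without the filter, 113 with the dimmest 50% left out, 1151 with the replicate block, and 7 to 590 with single arrays left out. It was 8 and 7 when a wild-type array (replicate 1, then 2) was dropped, 100 and 68 for the atyak1-2 arrays in the same order, and 590 for atyak1-1 replicate 1. For the allele difference it was 0, but 2 with the replicate block and 6 without atyak1-1 replicate 1 (0 to 6 with arrays left out). The cause of these shifts was not tested. Among the named genes tested against the wild type, the replicate block changed the calls of SWEET4, VI1, JMT and EULS3. Small differences changed sign with arrays left out, none of them past the threshold: STP3 ranged from -0.14 to 0.16 (and had -0.007 after quantile normalization), SWEET3 from -0.16 to 0.15, SWEET8 from -0.14 to 0.92, SWEET10 from -0.39 to 0.066, SWEET11 from -0.037 to 0.30, SWEET17 from -0.15 to 0.045, TMT1 from -0.12 to 0.081, SPS4F from -0.79 to 0.05, AMS from -0.044 to 0.59, A9 from -0.36 to 0.65, SHT from -0.36 to 0.81, AT5G62840 from -0.27 to 0.25 and AMY1 from -0.78 to 0.20. The allele differences did so too: AtVEX1 from -1.82 to 1.32, SWEET13 from -0.11 to 0.75, SWEET14 from -0.90 to 0.47 and SWEET9 from -0.34 to 0.87. Detection calls were not used, so folds against dim mutant signals have no firm upper end.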
